A study of Mus musculus with 18 samples.

Results

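The genes of the proteasome, its regulators and its assembly factors were followed through hindlimb development in mouse embryos with and without the transcription factor PITX1. Members were chosen by name, as every gene whose symbol starts with Psm, a letter from a to g and a digit, which gave 50 of the 23929 genes in the expression tables. No measured value picked a single gene, but the family was proposed with the fragments and levels of these libraries in view, so its counts describe these libraries and are not independent evidence. The 50 genes comprise 31 core subunits, 5 tissue-specific subunits of the catalytic particle, 5 activators and inhibitors, 7 assembly chaperones, and 2 others. Those 2 are Psme2b, a near-identical gene copy of the activator subunit Psme2, and Psmc3ip, which matches the name only and encodes a recombination protein.

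The proteasome is the large protease that degrades ubiquitin-tagged proteins in the cytosol and nucleus. Its catalytic particle, the 20S core, stacks outer rings of alpha subunits, which gate the entrance, on inner rings of beta subunits, which carry the active sites. The 19S regulatory particle binds the ends of the core, with a ring of ATPases that unfolds substrates and a set of non-ATPase subunits that capture ubiquitin chains and remove them. The assembled particle holds its subunits in fixed proportions, and the transcription factor NFE2L1 raises their genes together when the protease is impaired.

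RNA was sequenced from the hindlimb field with associated trunk at E9.5 and from the hindlimb at E11.5 and E12.5, in wild-type and Pitx1-/- embryos of the C57BL/6 strain, the latter called mutants here. Each of the 6 groups held 3 libraries. The labels name no other allele. They do not state whether embryos were pooled, or whether libraries of a group stem from different embryos, so the tests capture the spread between libraries, which may be technical. Levels are RPKM, which scale a gene's fragments by its length and by the size of the library. Each stage was normalised on its own, so levels are compared within a stage. Changes between stages come from the raw fragments, and levels of several stages given together are each on the scale of their stage.

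Pitx1 RNA was lower in each mutant library than in any wild-type one of the same stage. It measured 48.5, 57.1 and 58.8 RPKM in wild-type libraries against 24.1, 25.05 and 18.3 in mutant libraries at E9.5. The values were 138, 112 and 109 against 23.2, 17.3 and 20.01 at E11.5, and 114, 112 and 44.6 against 10.8, 13.4 and 11.6 at E12.5, where wild-type replicate 3 stood below the other 2 wild-type libraries. Depth ran from 14434038 to 60675723 fragments per library and moved with genotype at E9.5, where every wild-type library was deeper, and at E11.5, where every mutant library was. The 10 hindlimb mesenchyme markers were present in every group, with summed levels of 376 to 485 RPKM at E9.5, 699 to 838 at E11.5 and 665 to 807 at E12.5.

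Single libraries stood apart in the core subunits. Wild-type replicate 1 at E9.5, the deepest library of its stage, was the highest of 6 libraries for 27 of the 31 core genes, against 21.9% of all genes with a mean of at least 10 fragments. At E11.5, mutant replicate 2 was the highest for 29 of 31 and wild-type replicate 2 the lowest for 23, against 21.6% and 19.7% of all genes. At E12.5, wild-type replicate 3 was the lowest for 23 of 31, against 25.5%. The median core gene lay 0.16 log2 units above its stage mean in the E9.5 library and 0.24 above it in the E11.5 mutant library. In the latter the eIF3 translation factor genes lay at 0.20, the CCT chaperonin genes at 0.29 and the COP9 signalosome genes at 0.11 by the same measure. The 10 red blood cell markers summed to 21040 RPKM in that library, against 10751 and 11800 in the other mutants of E11.5, and to 15283, 10842 and 26002 in the wild type. In wild-type replicate 3 of E12.5 they summed to 5216 RPKM, against 17146 and 15395 in the other wild-type libraries. Their part in the core levels was not tested.

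The core genes were abundant. They summed to 6529 ± 621 RPKM in wild-type libraries at E9.5 and 6287 ± 158 in mutants (SD, n = 3 each). The sums were 4920 ± 320.4 and 5510 ± 599 at E11.5, and 4865 ± 220.2 and 5005 ± 76.9 at E12.5. All 50 genes together took 0.848% to 0.978% of the fragments of a library at E9.5, 0.675% to 0.827% at E11.5 and 0.648% to 0.704% at E12.5.

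**Figure D1:**
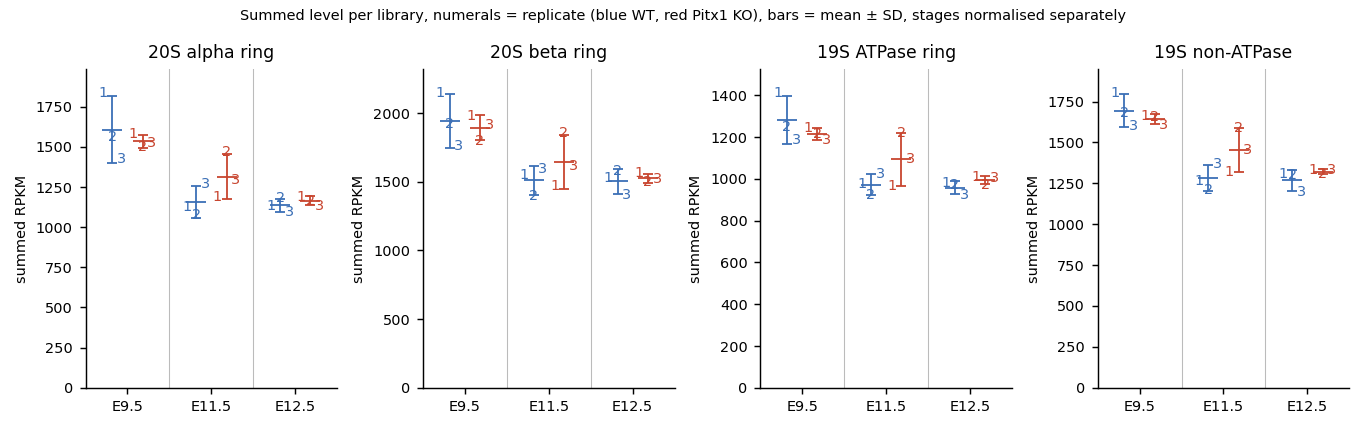
Summed RPKM of the alpha ring, beta ring, ATPase ring and non-ATPase subunits (4 panels) in each library by stage, with numerals for the replicate, wild type in blue, Pitx1 knockout in red, and bars for mean ± SD. Replicate 1 of the E9.5 wild type and replicate 2 of the E11.5 knockout are the highest of their stage in each panel, and stages were normalised separately.

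Within the alpha ring, Psma7 was the most abundant transcript and Psma3 by far the least at every stage in both genotypes. Psma7 averaged 471 RPKM in the E9.5 wild type, 287 at E11.5 and 282 at E12.5. Psma3 averaged 22.01, 17.6 and 15.6 RPKM in the same groups, so that the highest alpha gene exceeded the lowest by 21.4, 16.4 and 18.1 times, although the ring holds the subunits in equal number.

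The beta ring carries the 3 constitutive active sites. Psmb5, the chymotrypsin-like site, was the lowest transcript of the ring in every group. At E9.5 it stood at 94.5, 80.5 and 86.4 RPKM in wild-type libraries and 89.3, 85.9 and 87.6 in mutants. It measured 69.04, 56.8 and 66.4 against 64.8, 84.3 and 72.01 at E11.5, and 66.2, 67.8 and 57.4 against 64.4, 58.7 and 63.4 at E12.5. The genotypes overlapped at all 3 stages. Psmb6, the caspase-like site, averaged 359 RPKM in the E9.5 wild type, 289 at E11.5 and 283 at E12.5. Psmb7, the trypsin-like site, averaged 352, 277 and 256. The most abundant beta gene in every group was Psmb4, which has no active site, at 381, 289.9 and 305 RPKM in these groups.

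The ATPase ring was more even. Among its 6 genes the highest exceeded the lowest by 1.68 to 2.13 times, depending on the group. Of the 11 non-ATPase genes, Psmd11, a scaffold subunit of the lid, was the lowest in every group at 32.03 to 40.1 RPKM. Psmd4, a ubiquitin receptor, averaged 205, 169 and 174 RPKM in the wild type at the 3 stages, and Psmd14, the deubiquitinase of the lid, 147, 93.6 and 90.96. The large scaffold subunits Psmd1 and Psmd2 averaged 134 and 158 RPKM in the E9.5 wild type.

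The promoters of Psmb5, Psmb6, the ATPase gene Psmc6 and the lid gene Psmd12 are shown because they are the core genes whose promoter holds the core of the antioxidant response element, the motif that NFE2L1 and NFE2L2 bind. The motif searched was TGACNNNGC on both strands, in 250 bases before to 50 bases after the start of each gene in RefSeq's promoters of GRCm38.p6, a later build than that of the expression tables. Of the 50 genes, 42 had a promoter there. The 250 bases before the start follow, read along the gene's strand, with the 9 bases of the match in capitals. The Psmb5 stretch is chr14:54617996-54618245 on the minus strand, that of Psmb6 chr11:70525107-70525356, that of Psmc6 chr14:45329574-45329823 and that of Psmd12 chr11:107479278-107479527, the latter 3 on the plus strand.
Psmb5: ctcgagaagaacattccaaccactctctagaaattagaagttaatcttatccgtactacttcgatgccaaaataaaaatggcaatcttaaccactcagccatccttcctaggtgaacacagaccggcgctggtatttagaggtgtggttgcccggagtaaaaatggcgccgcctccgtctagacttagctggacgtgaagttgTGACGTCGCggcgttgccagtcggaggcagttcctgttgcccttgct
Psmb6: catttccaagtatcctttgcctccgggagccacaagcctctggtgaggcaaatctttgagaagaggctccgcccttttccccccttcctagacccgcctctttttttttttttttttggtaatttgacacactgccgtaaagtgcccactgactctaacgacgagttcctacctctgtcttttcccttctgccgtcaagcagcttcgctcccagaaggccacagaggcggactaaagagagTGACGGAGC
Psmc6: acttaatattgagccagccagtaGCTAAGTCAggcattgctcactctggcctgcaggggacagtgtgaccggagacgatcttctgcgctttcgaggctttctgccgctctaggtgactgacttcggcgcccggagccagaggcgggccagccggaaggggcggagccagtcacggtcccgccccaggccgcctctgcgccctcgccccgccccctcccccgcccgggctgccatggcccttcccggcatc
Psmd12: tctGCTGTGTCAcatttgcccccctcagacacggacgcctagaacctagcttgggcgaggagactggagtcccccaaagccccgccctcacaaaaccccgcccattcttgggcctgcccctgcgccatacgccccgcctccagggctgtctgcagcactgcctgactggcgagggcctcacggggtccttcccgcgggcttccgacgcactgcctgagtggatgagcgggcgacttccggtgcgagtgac

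The match ends 39 bases before the start in Psmb5 and directly before it in Psmb6. Its nearest base lies 219 bases before the start in Psmc6 and 239 in Psmd12, both on the opposite strand. In all, 6 of 42, 14.3%, against 13.99% of the 27025 genes in the table, held a match. The others were Psmd9 and Psme4. CCAAT, the box bound by NF-Y, was found in 15 of 42, 35.7%, against 41.1% of all. TTCNNNGAA, the gamma-interferon activated site, was found in 3 of 42, 7.14%, against 9.55% of all, namely in Psmb8, Psmd2 and Psmg1. A match describes letters and not binding.

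**Figure D2:**
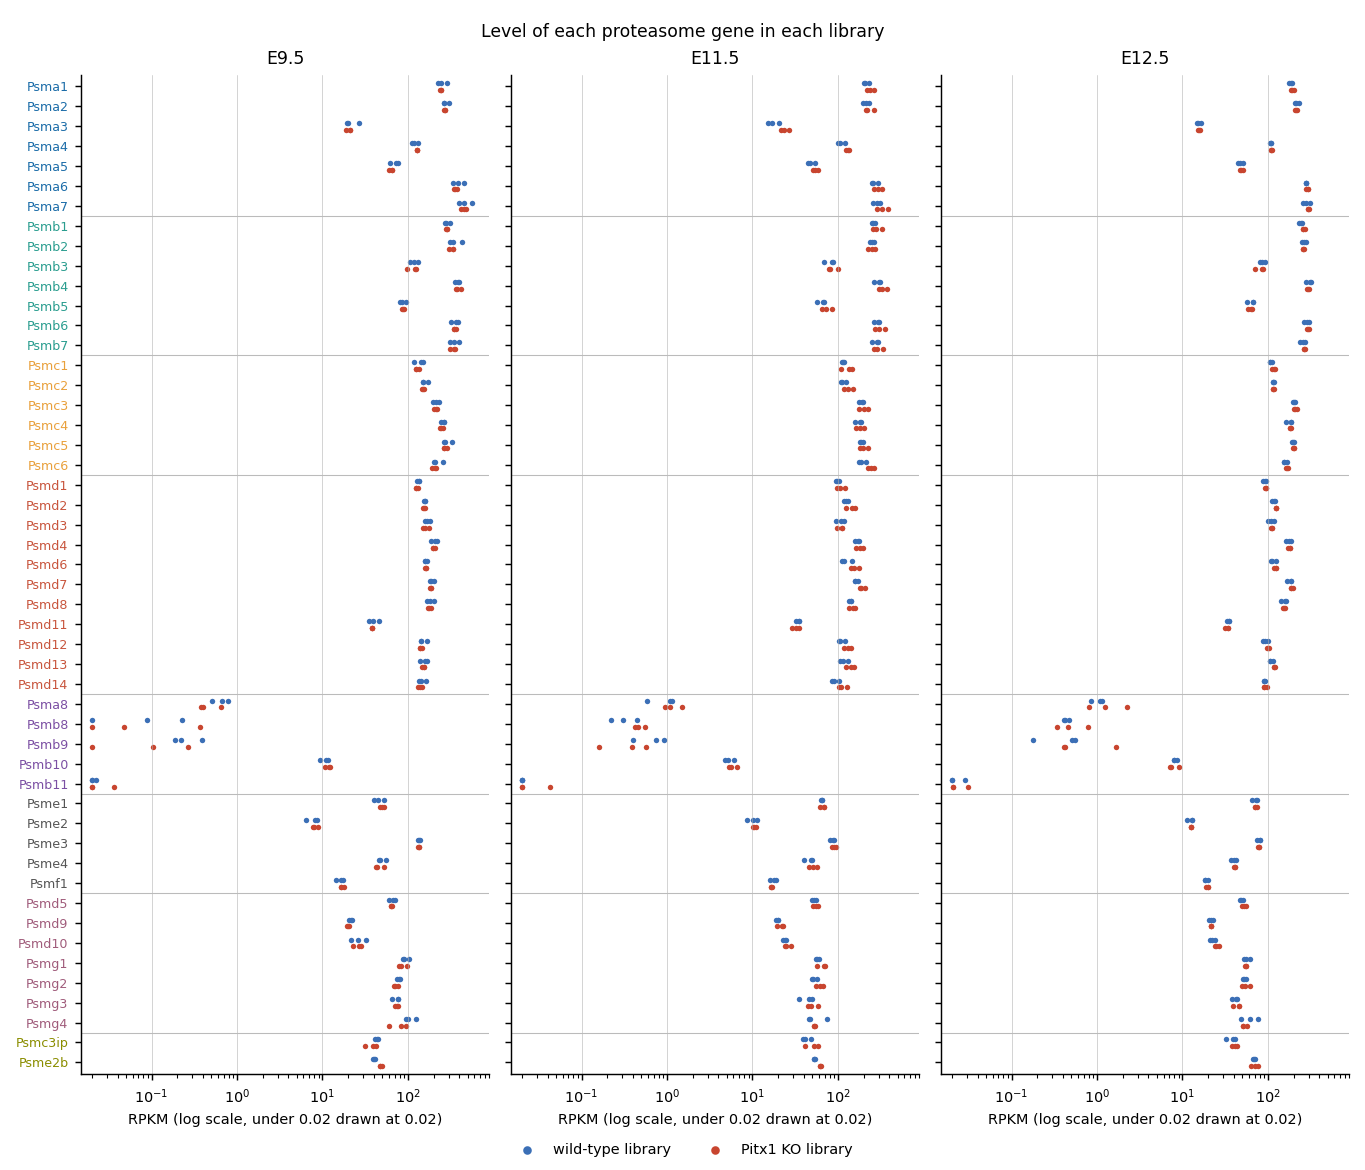
RPKM on a log axis (x) for each of the 50 genes (y) in each library of the 3 stages (panels), wild type in blue and Pitx1 knockout in red, with genes ordered by their place in the complex and values under 0.02 drawn at 0.02. Psma3, Psmb5 and Psmd11 are the lowest of their rings and of the non-ATPase group, and the highest library of Psma8, Psmb8, Psmb9 or Psmb11 is at 2.26 RPKM.

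Subunits of the immunoproteasome, the form that serves antigen presentation, were scarce. Psmb8, the inducible counterpart of Psmb5, reached 0% to 1.22% of the Psmb5 level over the 18 libraries. Psmb9, the counterpart of Psmb6, reached 0% to 0.557% of its level, and Psmb10, the counterpart of Psmb7, 1.62% to 3.95%. Psmb10 measured 9.33, 10.96 and 11.6 RPKM in wild-type libraries at E9.5 against 12.1, 12.2 and 10.9 in mutants. At E11.5 it stood at 5.21, 6.06 and 4.81 against 5.67, 6.57 and 5.36, and at E12.5 at 7.89, 7.99 and 8.73 against 7.40, 7.08 and 9.07. The genotypes overlapped at each stage. Psmb8 rested on 0 to 7 fragments per library at E9.5 and 10 to 35 later, and Psmb9 on 0 to 10 and 3 to 25.

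Leukocytes express these subunits highly. The 12 leukocyte markers summed to 5.50 to 8.93 RPKM at E9.5. At E11.5 they summed to 30.8 to 40.2 RPKM in wild-type and 20.4 to 26.5 in mutant libraries, and at E12.5 to 56.4 to 72.5 and 39.3 to 49.1. No marker was at 0 throughout a group. Their part in the levels of Psmb8, Psmb9 and Psmb10 was not tested. In bulk tissue, fewer cells of a type and less RNA per cell cannot be told apart.

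Psma8, the alpha subunit of the testis, had 9 to 105 fragments per library and 0.380 to 2.26 RPKM. Psmb11, the thymus subunit, had 0 to 8 fragments and passed the filter on low values in no comparison.

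Among the activators, which open the core without ubiquitin recognition, Psme3, the nuclear activator, was listed highest in every group. Its mean was 136 ± 3.76 RPKM in the E9.5 wild type (SD, n = 3). Psme1 measured 52.4, 40.1 and 44.6 RPKM in wild-type libraries at E9.5 against 52.3, 49.3 and 47.5 in mutants. The values were 65.3, 63.5 and 64.6 against 68.5, 68.6 and 61.6 at E11.5 and 73.0, 73.7 and 64.8 against 71.5, 69.9 and 75.1 at E12.5. The genotypes overlapped at each stage.

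Psme1 pairs with Psme2 in a ring, yet Psme2 was listed at 6.38 to 13.1 RPKM only, beside 40.1 to 75.1 for Psme1. Most of the signal stood at the copy. Psme2 and Psme2b summed to 46.99 to 89.7 RPKM over the libraries, of which Psme2 held 13.5% to 17.6%. Because the copies are near identical, the split between them is uncertain. At E12.5 the pair averaged 81.4 RPKM in wild-type and 82.8 in mutant libraries, beside Psme3 at 79.4 and 77.5. Psme4, the activator that acts in the germline and after DNA damage, averaged 39.8 to 52.03 RPKM by group, and the inhibitor Psmf1 16.1 to 19.7.

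The chaperones that help to build the alpha ring, Psmg1 to Psmg4, averaged 93.6, 78.1, 73.1 and 106 RPKM in the E9.5 wild type. Those of the ATPase ring stood at 66.2 RPKM for Psmd5, 26.95 for Psmd10 and 21.4 for Psmd9 in that group.

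Loss of Pitx1 moved no tested gene of the name rule past the test at any stage. The lid subunit Shfm1, outside that rule, passed at E11.5 and is treated below. With edgeR's quasi-likelihood test and adjustment by Benjamini-Hochberg over the whole table, 0 of 47 tested genes passed an adjusted p of 0.05 at E9.5, beside 0.0217% of all genes. At E11.5 it was 0 of 49, beside 1.96%, and at E12.5 0 of 48, beside 0.0138%. At an unadjusted p under 0.05 the counts were 2, 13 and 1, beside 4.01%, 22.2% and 15.1% of all genes. DESeq2 called 0, 4 and 0 of the tested members, beside 19 of 13804, 1305 of 14601 and 443 of 14494 genes. Psmb8, Psmb9 and Psmb11 were not tested at E9.5, Psmb11 at E11.5, and Psmb9 and Psmb11 at E12.5.

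At E11.5 the differences leaned to the mutant side without passing. Only 2 of 31 core genes had a log2 fold change, mutant minus wild type, below 0, beside 52.1% of all genes. The core median was 0.17, beside -0.01 over the 14601 genes tested. By the same measure the CCT genes ranged from 0.24 to 0.35 and the eIF3 genes from -0.12 to 0.37. The COP9 signalosome genes ranged from -0.19 to 0.22. No test set them against the core, so the lean is not shown to be particular to the proteasome. Without mutant replicate 2 the core median was 0.08, and without mutant replicate 1 it was 0.22. Without wild-type replicate 2 it was 0.12. At this stage muscle markers summed to 51.3 to 155 RPKM in wild-type and 16.3 to 29.3 in mutant libraries, and cartilage markers to 218 to 287 and 125 to 174. Surface ectoderm markers summed to 132 to 159 RPKM in wild-type and 168 to 177 in mutant libraries. Their part, and that of depth, was not tested.

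Psmc6, an ATPase of the 19S base, had the lowest adjusted p. It measured 178, 189 and 211 RPKM in wild-type libraries against 223, 268 and 247 in mutants at E11.5, and the groups did not overlap. Its log2 fold change was 0.35 ± 0.09 (SE, adjusted p = 0.0691), and the adjusted p ran from 0.00747 to 0.255 over 12 alternatives. It passed with DESeq2, with no filter on low values, with all 18 libraries in 1 fit, without wild-type replicate 3 and without mutant replicate 1. Psma3 measured 16.7, 15.4 and 20.6 RPKM against 21.5, 27.02 and 23.6, again without overlap, with a log2 fold change of 0.45 ± 0.13 (adjusted p = 0.0909). It passed with DESeq2 and without wild-type replicate 3.

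In 5 of 49 genes, every E11.5 mutant library lay above every wild-type library: Psma3, Psma4, Psmc6, Psmd7 and Psme2b. That is 10.2%, beside 13.7% of all genes. In 0 genes every mutant library lay below, beside 14%. Psma4, a gate subunit of the alpha ring, measured 101, 107 and 120.5 RPKM in wild-type libraries against 125, 136 and 132. Psmd7, the partner of the deubiquitinase Psmd14, measured 158, 158 and 170 against 181, 208 and 188. Psmd7 passed with DESeq2 and Psma4 did not, and both passed with all 18 libraries in 1 fit. Psmd6 of the lid, whose groups overlapped, passed in those 2 alternatives and without wild-type replicate 3. A share near the background is not a result about these genes.

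Psme2b kept close values within groups at the earlier stages. It measured 40.7, 41.04 and 38.9 RPKM in wild-type libraries at E9.5 against 47.7, 49.3 and 47.6 in mutants, 52.8, 52.03 and 54.05 against 61.8, 62.9 and 61.8 at E11.5, and 70.0, 67.7 and 69.3 against 70.02, 63.7 and 76.99 at E12.5. The genotypes were separate at E9.5 and E11.5 and overlapped at E12.5. The log2 fold changes were 0.26 ± 0.09 (adjusted p = 0.999), 0.23 ± 0.07 (adjusted p = 0.111) and 0.03 ± 0.08 (adjusted p = 0.899), and none passed.

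At E9.5 the core median was -0.07, with 27 of 31 below 0, beside 51.3% of all genes. The CCT genes ranged from -0.10 to -0.04, the eIF3 genes from -0.15 to 0.003 and the COP9 signalosome genes from -0.27 to 0.08. Without wild-type replicate 1 the core median was 0.02, so its direction rests on that library. Psme2b was the 1 gene higher in every E9.5 mutant library, beside 4.7% of all genes, and Psmg4, an assembly chaperone, the 1 gene lower in every one, beside 4.59%. Psmg4 stood at 123, 99.98 and 96.1 RPKM against 95.2, 60.9 and 82.2, a log2 fold change of -0.42 ± 0.17 (adjusted p = 0.999).

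At E12.5 the core median was 0.04, with 8 of 31 below 0, beside 50.1% of all genes. The CCT genes ranged from 0.08 to 0.17, the eIF3 genes from 0.05 to 0.21 and the COP9 signalosome genes from -0.15 to 0.14. Without wild-type replicate 3 the core median was 0.01. Every mutant library lay above every wild-type library for Psmb1, Psmc1, Psmd2 and Psmd13, 4 of 48 or 8.33%, beside 11.4% of all genes. In 0 every mutant library lay below, beside 10.3%. Psmc1, an ATPase whose tail opens the gate of the core, measured 105, 110.4 and 105 RPKM against 123, 112 and 118, a log2 fold change of 0.14 ± 0.06 (adjusted p = 0.311).

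**Figure D3:**
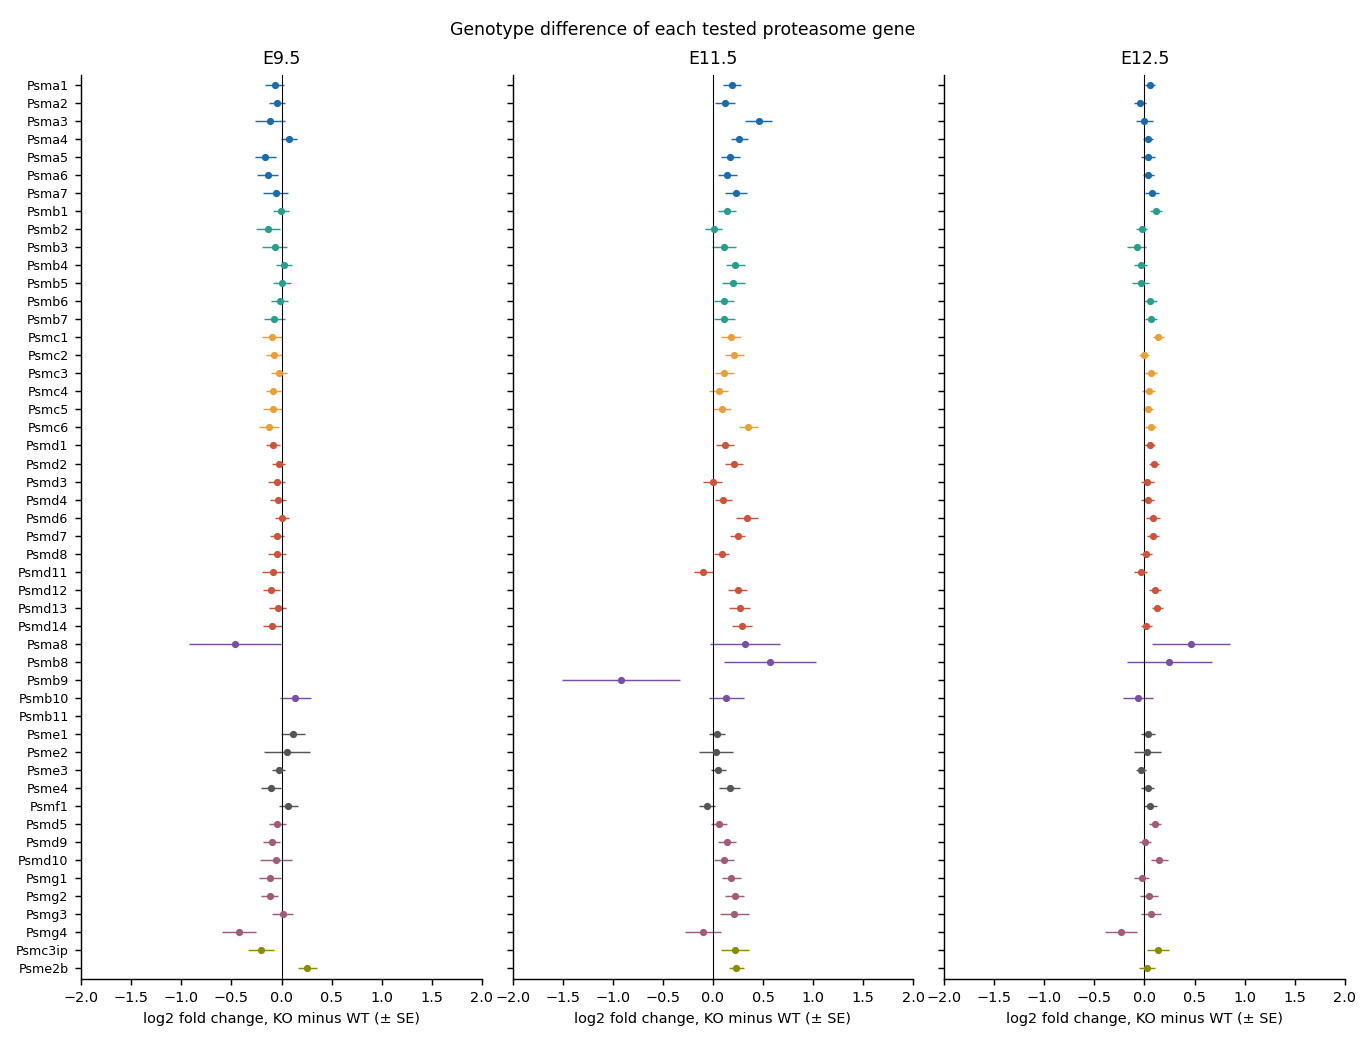
Log2 fold change (x), knockout minus wild type, with bars for its SE, for each tested gene (y) in the 3 stages (panels), coloured by place in the complex. The core median is -0.07 at E9.5, 0.17 at E11.5 and 0.04 at E12.5, and no gene passed the test.

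Between E9.5 and E11.5 the proteasome genes fell, in a comparison that also changes the tissue from field with trunk to limb, so stage and tissue cannot be told apart. In the wild type, 39 of 49 genes fell with edgeR, beside 27.6% of the 15372 genes tested, and 2 rose, beside 28.3%. All 31 core genes were among those that fell, with a median log2 change of -0.47, beside 0.01 over all genes. Without wild-type replicate 1 of E9.5, 23 of 31 core genes passed, and without replicate 2 of E11.5, 24.

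In the mutants, 25 of 49 fell, beside 25.5% of all genes, and 3 rose, beside 25%. There 18 of 31 core genes fell, with a median of -0.26. That count was 8 without mutant replicate 1 of E11.5, 11 without replicate 1 of E9.5 and 11 without replicate 3 of E11.5. Without replicate 2 of E11.5 it was 22, with a median of -0.35. The 25 genes that fell in the mutants all fell in the wild type too. Over this interval neural markers stood at 38.6 to 73.6 RPKM at E9.5 and 10.8 to 17.2 at E11.5, on scales set separately, and 4 of 6 fell in the wild type and 5 in the mutants. Of the 12 leukocyte markers 12 and 9 rose. Their part was not tested.

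Psma7 fell by 0.79 ± 0.13 on the log2 scale in the wild type (SE, adjusted p = 1.61e-04, edgeR) and by 0.51 ± 0.13 in the mutants (adjusted p = 0.00441). Psmd14 fell by 0.73 ± 0.10 and by 0.35 ± 0.10. Psmd3, a subunit of the lid, fell by 0.72 ± 0.10 and by 0.68 ± 0.10. The scaffold subunit Psmd1 fell by 0.51 ± 0.08 and by 0.31 ± 0.08. Of the active sites, Psmb5 fell by 0.53 ± 0.11 and by 0.33 ± 0.11, and Psmb6 by 0.39 ± 0.10 and by 0.26 ± 0.10. The mutant call of Psmb5 was lost without mutant replicate 1 of E9.5 or replicate 1 or 3 of E11.5, that of Psmb6 without any of 6 single libraries, and that of Psmd14 without mutant replicate 1 of E11.5. Psmb5 and Psmb6 hold promoter matches shown above, and a link of the matches to these changes was not tested. Psmb7 fell by 0.43 ± 0.11 in the wild type, whereas its change of -0.25 ± 0.11 in the mutants did not pass (adjusted p = 0.0813).

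Of the 7 assembly chaperones, 6 fell in the wild type and 5 in the mutants, with medians of -0.64 and -0.31. Psmg4 fell by 1.05 ± 0.19 in the wild type, Psmg3 by 0.83 ± 0.13, Psmg1 by 0.78 ± 0.10 and Psmg2 by 0.64 ± 0.09. Psmg4 stood at 123, 99.98 and 96.1 RPKM in the E9.5 wild type and at 75.5, 45.8 and 46.6 at E11.5. Psmd9 fell by 0.21 ± 0.08 in the wild type, a call lost in 12 of 17 alternatives, and Psmd10 changed by -0.27 ± 0.14, which did not pass.

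Activators went separate ways over this interval. Psme3 fell by 0.72 ± 0.07 in the wild type (adjusted p = 1.40e-06) and by 0.64 ± 0.07 in the mutants (adjusted p = 5.22e-06). Its wild-type levels were 139.8, 133 and 134 RPKM at E9.5 and 88.9, 80.4 and 90.8 at E11.5, each on the scale of its stage. Psme1 rose by 0.41 ± 0.10 and by 0.34 ± 0.10, and Psme2b by 0.32 ± 0.07 and by 0.29 ± 0.07. Those were the 2 genes that rose in both genotypes.

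Psmb10 fell by 1.06 ± 0.16 in the wild type and by 1.07 ± 0.16 in the mutants. Psma8 rose by 1.22 ± 0.41 in the mutants (adjusted p = 0.0231) from 9 to 18 fragments per library at E9.5. That call was lost without mutant replicate 1 or 3 of E9.5 or replicate 3 of E11.5.

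The smaller count in the mutants does not show that the fall differed between genotypes. With DESeq2, the test of that difference passed for 0 of 49 genes, beside 385 of the 15372 in the fit. With edgeR it passed for 0, beside 0.026% of all genes. At an unadjusted p under 0.05 it was 9 of 49, beside 15.2%. The lowest adjusted p was 0.17, for Psmc6, which fell by 0.29 ± 0.10 in the wild type and changed by 0.19 ± 0.10 in the mutants, which did not pass.

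From E11.5 to E12.5 fewer genes passed. In the wild type 5 of 49 genes fell, beside 16.3% of the 15324 genes tested, and 2 rose, beside 17.1%. Those that fell were Psma1, Psmc6, Psmd12, Psme3 and Psme4, and Psmb10 and Psme2b rose. Without wild-type replicate 3 of E11.5 the genes passing were 2, and without that of E12.5 also 2. The core median of -0.09 was -0.03 without wild-type replicate 3 of E11.5 and -0.05 without that of E12.5.

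In the mutants 20 of 49 fell, beside 21.1% of all genes, and 0 rose with edgeR, beside 20.4%. The 20 include the 5 that fell in the wild type and 16 of the 31 core genes, with a core median of -0.23, beside 0.01 over all genes and a core median of -0.09 in the wild type. Without mutant replicate 2 of E11.5, the library highest for 29 core genes, 11 genes passed, 8 of them core genes, and the median was -0.13.

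**Figure D4:**
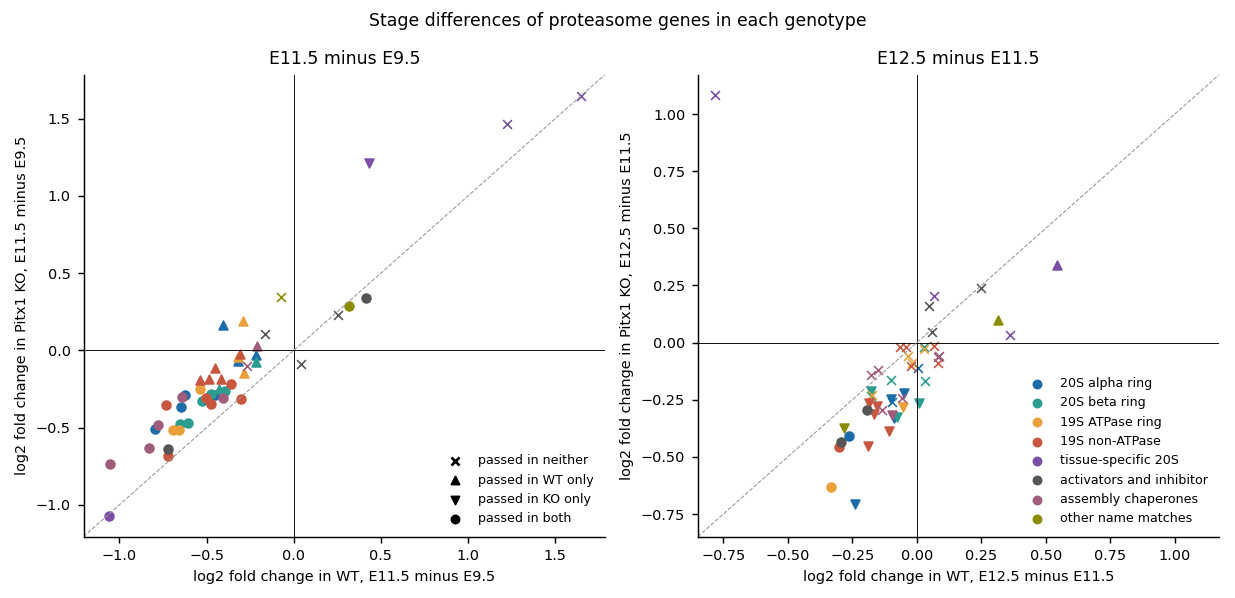
Log2 fold change of each tested gene in the wild type (x) and in the Pitx1 knockout (y), for E11.5 minus E9.5 (left) and E12.5 minus E11.5 (right), with symbols for the genotypes in which the test was passed and colours for the place in the complex. On the left the core genes all lie below 0 in the wild type, with a median of -0.47, and Psmb10 is the lowest point.

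Psmc6 fell by 0.33 ± 0.08 in the wild type over this interval (adjusted p = 0.0066, edgeR) and by 0.63 ± 0.08 in the mutants (adjusted p = 1.34e-04). Its wild-type libraries stood at 178, 189 and 211 RPKM at E11.5 and 169, 156 and 156 at E12.5. Its mutant libraries stood at 223, 268 and 247 and 174, 166 and 164. Of the genes whose promoters are shown, Psmc6 and Psmd12 hold the match on the opposite strand. A link of the matches to these changes was not tested. The wild-type call of Psmc6 held in all 17 alternatives. Psma3 fell by 0.71 ± 0.12 in the mutants (adjusted p = 5.07e-04) and changed by -0.24 ± 0.12 in the wild type, which did not pass (adjusted p = 0.126). Its mutant libraries stood at 21.5, 27.02 and 23.6 RPKM on the E11.5 scale and 15.5, 15.2 and 15.97 on that of E12.5.

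Psmd12, a lid subunit, fell by 0.30 ± 0.08 in the wild type and by 0.46 ± 0.08 in the mutants. Psma1, of the alpha ring, fell by 0.26 ± 0.08 and by 0.41 ± 0.08. Psme4 fell by 0.29 ± 0.10 and by 0.44 ± 0.10, and Psme3 by 0.19 ± 0.06 and by 0.29 ± 0.06. The wild-type calls of these genes were each lost without wild-type replicate 3 of E11.5, and again without that of E12.5. That of Psme4 was also lost without wild-type replicate 2 of either stage or mutant replicate 3 of E12.5. That of Psme3 was also lost without wild-type replicate 1 of E11.5 or mutant replicate 3 of E12.5. Psmd6 of the lid fell by 0.45 ± 0.10 in the mutants, and Psmd14 by 0.39 ± 0.09.

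Psmb10 turned upward in the wild type, rising by 0.55 ± 0.15 (adjusted p = 0.0166), and changed by 0.34 ± 0.15 in the mutants, which did not pass (adjusted p = 0.0931). The wild-type call was lost without replicate 3 of E11.5 or of E12.5, with an adjusted p of up to 0.0684 over 17 alternatives. Psme2b rose by 0.31 ± 0.07 in the wild type (adjusted p = 0.00477) and changed by 0.10 ± 0.07 in the mutants (adjusted p = 0.28).

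Over the same interval 4 of 13 tested genes of MHC class I presentation and the interferon response rose in the wild type and 2 in the mutants, beside 17.1% and 20.4% of all genes. With so few genes, counts this close to the shares are not a result about the set, and the number that fell is not given. B2m, the light chain of MHC class I, rose by 0.43 ± 0.08 and by 0.34 ± 0.08, and Tapbp, which helps to load peptide on it, by 0.54 ± 0.11 and by 0.80 ± 0.11. Of the 12 leukocyte markers 7 rose in each genotype, and their part in these changes was not tested.

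For the difference between genotypes over this interval, 0 of 49 genes passed with DESeq2, beside 121 of the 15324 in the fit. With edgeR 0 passed, beside 0.00653% of all genes. At an unadjusted p under 0.05 it was 6, beside 10.3%. The lowest adjusted p was 0.39, for Psma3.

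**Figure D5:**
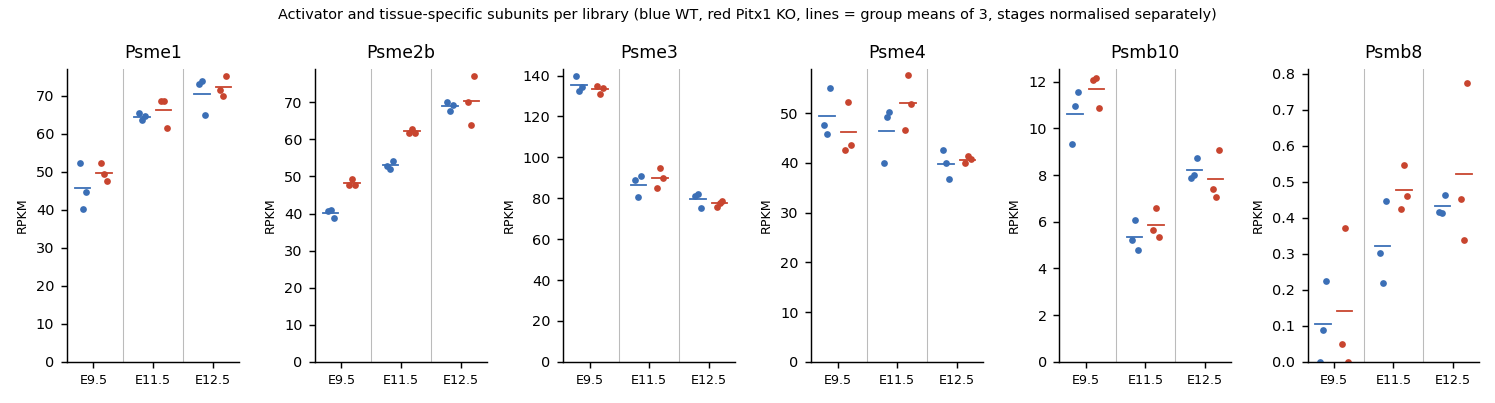
RPKM (y, from 0) of Psme1, Psme2b, Psme3, Psme4, Psmb10 and Psmb8 in each library by stage, wild type in blue and Pitx1 knockout in red, with lines at the mean of 3. Psme3 stands at 131 to 139.8 RPKM at E9.5 and 75.4 to 94.8 later, and stages were normalised separately.

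Genes that work with the proteasome but fall outside the name rule were read in the same fits. Their counts stand beside 27.6% of all genes lower and 28.3% higher over the first interval in the wild type, and 25.5% and 25% in the mutants. Over the second interval the shares were 16.3% and 17.1%, and 21.1% and 20.4%. Of 12 partners of the proteasome, 7 fell and 1 rose from E9.5 to E11.5 in the wild type. Uchl5, a deubiquitinase of the regulatory particle, fell by 0.82 ± 0.12, and Pomp, the maturation factor of the core, by 0.59 ± 0.09. In the mutants 2 fell and 2 rose. From E11.5 to E12.5, 5 fell in the wild type and 9 in the mutants, with Akirin2, which helps to import proteasomes into the nucleus, lower by 0.41 ± 0.07 and by 0.58 ± 0.07.

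Between genotypes at E11.5, Shfm1, a small lid subunit, was the 1 of these 12 that passed, beside 1.96% of all genes. It was higher in the mutants, with a difference of 0.55 ± 0.08 on the log2 scale (SE, adjusted p = 0.0153, edgeR). It stood at 594, 589.8 and 646 RPKM in wild-type libraries and 837, 968 and 875 in mutants. With edgeR its differences of 0.14 ± 0.12 at E9.5 and 0.15 ± 0.08 at E12.5 did not pass (adjusted p = 0.999 and 0.385). The alternatives were followed for genes of the name rule only, so the hold of the Shfm1 call over them is not known.

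The 14 genes of ubiquitin and its activation counted 5 lower and 1 higher from E9.5 to E11.5 in the wild type, and 1 and 4 in the mutants. From E11.5 to E12.5, 8 fell in each genotype, among them Uba6, an activating enzyme, by 0.40 ± 0.08 and by 0.60 ± 0.08. Of 12 receptors and shuttles that bring ubiquitin chains to the particle, 6 fell in the wild type over the first interval and 4 in the mutants. Sqstm1, an autophagy receptor, rose by 0.45 ± 0.06 and by 0.51 ± 0.06 over the second. The counts of this list over that interval are not given, so this gene does not speak for the list.

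Of the 13 genes of the NFE2L1 route, 5 were lower and 4 higher over the first interval in the wild type, beside 27.6% and 28.3% of all genes. Nfe2l1 itself fell by 0.23 ± 0.08, Ddi2, the protease that cleaves its product, by 0.71 ± 0.07, and Ngly1, the enzyme that strips its sugars, rose by 1.20 ± 0.14. In the mutants 4 of the 13 fell and 3 rose, beside 25.5% and 25%. Counts this close to the shares of all genes are not a result about the route. Between genotypes 0 passed at each stage with edgeR, beside 0.0217%, 1.96% and 0.0138% of all genes from the earliest stage to the latest. In the same order 0, 0 and 1 had an unadjusted p under 0.05, beside 4.01%, 22.2% and 15.1%.

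Other large complexes fell alongside the proteasome from E9.5 to E11.5. In the wild type 8 of 8 CCT genes, 12 of 12 eIF3 genes and 8 of 9 COP9 signalosome genes fell, with medians of -0.70, -0.58 and -0.29 beside -0.47 for the 31 core genes. In the mutants 7 of 8, 8 of 12 and 5 of 9 fell, with medians of -0.33, -0.33 and -0.26 beside -0.26. From E11.5 to E12.5, 8 of 8 CCT genes fell in the mutants and 5 in the wild type. The eIF3 and COP9 signalosome genes are not given for that interval. No test set these complexes against the proteasome, so the core medians are not shown to be particular to it.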

How the data were processed

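RNA of 18 mouse libraries was analysed, 3 in each of 6 groups of stage and genotype. The submitters' processing notes name build mm9 and the tools FastQC, TopHat2 and Cuffdiff. Their versions, the gene annotation and whether counting used strand: not given in the sources used here. The deposited raw fragments are estimated counts, per the file headers. RPKM values, normalised by the authors within each stage, were deposited beside them. Cuffdiff replicates 0 to 2 were read as replicates 1 to 3, which the labels do not state. Of 23929 genes, 6 with a failed estimate and 2 date-like names standing for 2 genes each were left out.

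Fragments were rounded (1.79% were not whole) and tested with edgeR 4.0.16 in R 4.3.3, with TMM scaling, filterByExpr and the robust quasi-likelihood F test. P-values were adjusted by Benjamini-Hochberg over the genes tested, with a threshold of 0.05. Genotypes were compared within a stage in 6 libraries, and stages in fits of 12 libraries. SE is the size of the log2 fold change divided by the root of F. Replicates differed by more than sampling noise (lowest chi-square per degree of freedom 8.26). Tried as alternatives were DESeq2 1.42.0, limma 3.58.1 on log2(RPKM + 1), RLE scaling, no filter, a replicate block, all 18 libraries in 1 fit, and leaving out each library. The test was also run on simulated counts with known changes. These were drawn gene by gene without shifts shared across a library, so they do not bear on such shifts.

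Genes, lists and tests were chosen with earlier results of these data known. Named are the active-site, tissue-specific, activator and assembly genes with Psmc1, Psmd1, Psmd2, Psmd4 and Psmd14, the highest and lowest of each ring, up to 5 largest rises and falls per comparison, and up to 3 per outside list and direction. Not every such gene is printed. Psma4, Psmb1, Psmd7, Psmd13 and Nfe2l1 were named after their values were seen.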

Additional observations from a re-analysis of the deposited data

How the results depend on the processing

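Over all alternatives, 3654 of 3759 values of single named genes kept their call, 63 lost it, 42 gained it and no called value changed sign, while 95 of 2799 values that passed nowhere changed sign. For the genotype difference at E11.5, DESeq2 called 4 genes, no filter 1 and all 18 libraries in 1 fit 4. Leaving out each library gave 0 to 3 genes at E11.5 and 0 at E9.5 and E12.5. The core median ran from -0.11 to 0.02 at E9.5, 0.08 to 0.22 at E11.5 and 0.01 to 0.06 at E12.5. From E11.5 to E12.5 in the wild type, 2 to 9 genes and 1 to 5 core genes passed (median -0.12 to -0.03), and in the knockout 11 to 26 and 8 to 20 (-0.31 to -0.13). From E9.5 to E11.5, 32 to 42 and 23 to 31 passed in the wild type (-0.53 to -0.41), and 18 to 32 and 8 to 22 in the knockout (-0.35 to -0.18). Both differences between genotypes gave 0 throughout, with core medians of -0.209 to -0.0483 from E11.5 to E12.5 and 0.11 to 0.27 from E9.5 to E11.5. The cause was not tested. Over all genes, the E11.5 genotype count of 286 became 1305 with DESeq2, 525 with no filter, 692 with all 18 libraries, 149 with limma, 100 with the block, and 9 to 643 with each library left out. With DESeq2 the counts of 3 at E9.5 and 2 at E12.5 became 19 and 443, and those of 4 and 1 for the differences between genotypes from E9.5 to E11.5 and from E11.5 to E12.5 became 385 and 121. With the block the E12.5 count was 386. The labels share replicate numbers but name no shared litter, and same-numbered libraries correlated at -0.39 to 0.23, so they were not taken as pairs. With the replicate number as a block, 38 and 24 genes passed from E9.5 to E11.5 in the wild type and knockout, 6 and 17 from E11.5 to E12.5, and 0 between genotypes. Of the changes given, those of Psmb6 in the knockout and Psmd9 in the wild type from E9.5 to E11.5, and of Psme3 in the wild type from E11.5 to E12.5, were lost under it. With 3 libraries per group, small differences may go undetected, and Psmb8, Psmb9 and Psmb11 rest on few fragments.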
